A study of Mus musculus with 8 samples.

Results

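Glycosyltransferases that build mucin-type and terminal glycans were followed in the esophagus of EoE33 mice and their wild type littermates. Members were the protein-coding genes whose GRCm38 symbol begins with Galnt, C1galt, Gcnt, B3gnt, B3galt, B4galt, Fut and a digit, St3gal, St6gal or St8sia, which took 76 of the 49315 genes of the count table. The family was chosen by a result of this same comparison, in which B3galt5 had the smallest p-value, so all fold changes and calls of members below are descriptions and support nothing on their own. The symbol pattern also took in genes with other roles: enzymes of the glycosaminoglycan linker (B3galt6, B4galt7), of gangliosides (B3galt4, St3gal5, St8sia1) and of the N-glycan core (Fut8), and C1galt1c1, which encodes a chaperone.

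PolyA RNA of whole esophagus was sequenced from 8 mice, all male and 8 weeks old. The EoE33 group held 4 transgenic mice that overexpress IL-33, an epithelial alarmin cytokine, in the esophagus, and the wild type group held 4 C57BL/6J littermates without the transgene. The strain of all 8 mice is given as C57BL/6J. The promoter that drives the transgene, and whether the mice come from 1 founder line, is not given in the sources used here. The series concerns eosinophilic esophagitis, an allergic inflammation of the esophagus, and its dependence on IL-13, and the comparison asks which transcripts differ when IL-33 is overexpressed.

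Mucin-type O-glycans start in the Golgi, where a polypeptide GalNAc-transferase of the Galnt family places N-acetylgalactosamine on serine or threonine. C1galt1 adds galactose to give the core 1 disaccharide, Gcnt enzymes add a branch, and B3gnt, B3galt and B4galt enzymes lengthen the chains, which end in fucose or sialic acid added by Fut, St3gal, St6gal, St6galnac and St8sia enzymes. In the esophagus such glycans coat the stratified squamous epithelium and the transmembrane mucins at its surface, and terminal fucose and galactose form the histo-blood group antigens of ABO and Lewis type.

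Library totals lay between 17726292 and 24070822 counts. Il33 was at 355, 393, 369.8 and 367 CPM (counts per 1000000) in EoE33, against 123, 128, 165 and 99.8 CPM in wild type, and the counts do not separate transgene from endogenous transcripts. The groups separated on the first principal component, which took up 81.6% of the variance. Markers of the esophageal squamous epithelium were present in both groups: the summed level of 4 basal keratinocyte markers was 14630 to 18110 CPM in EoE33 and 2140 to 3116 CPM in wild type, and that of 4 suprabasal markers was 14290 to 34070 CPM in EoE33 and 49940 to 87790 CPM in wild type. Within wild type, replicate 3 stood apart for airway markers, with 1061 CPM summed, and replicate 1 for liver markers, with 129 CPM, against at most 7.34 and 9.90 CPM in the other 3 libraries of that group.

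Of the 76 members, 65 passed the filter on low counts and were tested with all 16760 genes in edgeR's quasi-likelihood test at a Benjamini-Hochberg adjusted p under 0.05. Past that threshold, 30 members were higher in EoE33 and 18 were lower, 48 in all or 73.8%, and 17 did not pass. Over the whole table, a share of 63.4% of tested genes were called, 31.3% higher and 32.1% lower. At a fold of at least 2, 19 members were higher and 11 lower, where the table gave 12.3% and 14.9%. EoE33 and wild type libraries did not overlap in 48 of the 65 members and in 59.5% of all genes. The median log2 fold change was 0.16 over the members and -0.01 over all genes, and the median absolute value was 0.84 and 0.52. Without wild type replicates 1 and 3, 24 members were higher and 15 lower. Since the contrast chose the family, nothing is read from these shares.

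**Figure D1:**
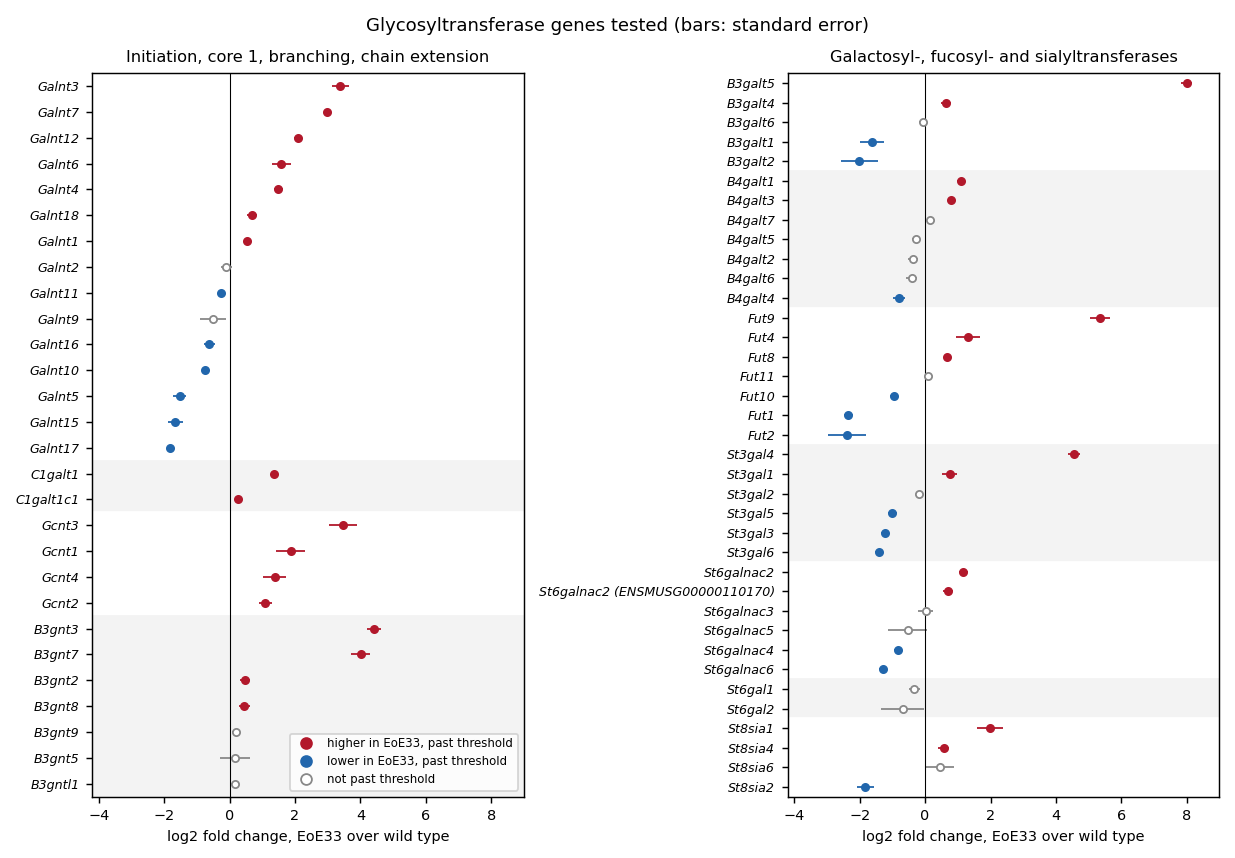
Log2 fold change of EoE33 over wild type (x axis) for the 65 tested members (rows, shaded by family), with bars of 1 standard error (4 mice per group). Red points were higher and blue points lower in EoE33 past the threshold, and open points did not pass; B3galt5 lies farthest right at 8.00 and Fut2 farthest left at -2.40.

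B3galt5 had the largest fold change of the family. It encodes a beta-1,3-galactosyltransferase that joins galactose to terminal N-acetylglucosamine and so makes type 1 chains. The gene (ENSMUSG00000074892) lies on the plus strand of chromosome 16 from 96235801 to 96319859 (GRCm38). Its level was 74.3, 73.0, 80.8 and 62.9 CPM in EoE33, against 0.297, 0.395, 0.169 and 0.257 CPM in wild type. All EoE33 libraries were at a like level and all wild type libraries were near the detection limit, where 3 counts correspond to 0.127 to 0.176 CPM. The counts summed to 5935 over EoE33 and 26 over wild type, and the means were 72.7 ± 7.38 and 0.280 ± 0.094 CPM (SD, n = 4 each). This was a 256-fold difference (log2 fold change 8.00, standard error 0.17), and the log2 fold change was 7.77 without wild type replicates 1 and 3.

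The promoter windows below, 250 bases before to 50 after a start site (RefSeq, GRCm38.p6), are shown for B3galt5 at its 3 annotated starts, for B3gnt3 and St3gal4, which had large rises and the highest levels in EoE33, and for Fut1, which fell. The plan had named the members with the largest rise and fall. Fut9, with a larger rise (log2 fold change 5.36), and Fut2, with a slightly larger fall (-2.40), are not shown. The windows are printed 5′ to 3′ on the gene's strand, and capitals mark matches, on either strand, to 4 motifs: TTCNNNGAA and TTCNNNNGAA, the letters bound by STAT factors, and CAGGAAG and CCGGAAG, the core of ETS factor sites. STAT6 carries the signal of IL-4 and IL-13, and Il4ra, their shared receptor subunit, had a log2 fold change of 4.05. Whether STAT6 acts on any member was not tested.
B3galt5 start 1, chr16:96235551-96235850, plus strand: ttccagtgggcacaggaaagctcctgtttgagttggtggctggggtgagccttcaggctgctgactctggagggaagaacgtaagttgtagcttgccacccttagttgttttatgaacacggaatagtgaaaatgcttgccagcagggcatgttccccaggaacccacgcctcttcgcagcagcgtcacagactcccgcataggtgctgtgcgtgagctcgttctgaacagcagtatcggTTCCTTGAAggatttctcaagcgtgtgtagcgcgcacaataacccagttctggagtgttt
B3galt5 start 2, chr16:96273263-96273562, plus strand: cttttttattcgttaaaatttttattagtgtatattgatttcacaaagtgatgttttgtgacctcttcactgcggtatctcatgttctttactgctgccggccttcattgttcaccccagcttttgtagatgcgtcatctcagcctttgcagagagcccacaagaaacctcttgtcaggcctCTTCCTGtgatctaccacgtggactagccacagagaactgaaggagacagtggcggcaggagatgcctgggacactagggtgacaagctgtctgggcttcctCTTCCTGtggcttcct
B3galt5 start 3, chr16:96280782-96281081, plus strand: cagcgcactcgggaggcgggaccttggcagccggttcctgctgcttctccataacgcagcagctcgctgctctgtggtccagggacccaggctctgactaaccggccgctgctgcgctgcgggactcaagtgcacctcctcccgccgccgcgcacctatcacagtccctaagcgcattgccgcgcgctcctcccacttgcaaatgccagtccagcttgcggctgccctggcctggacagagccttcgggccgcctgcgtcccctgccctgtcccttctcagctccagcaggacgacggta
B3gnt3, chr8:71701751-71702050, minus strand: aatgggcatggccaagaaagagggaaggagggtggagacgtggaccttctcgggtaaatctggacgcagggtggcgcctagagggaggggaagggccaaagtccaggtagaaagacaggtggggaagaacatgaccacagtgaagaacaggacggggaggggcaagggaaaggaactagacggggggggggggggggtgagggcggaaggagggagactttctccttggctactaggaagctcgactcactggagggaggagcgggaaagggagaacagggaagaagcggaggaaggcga
St3gal4, chr9:35116815-35117114, minus strand: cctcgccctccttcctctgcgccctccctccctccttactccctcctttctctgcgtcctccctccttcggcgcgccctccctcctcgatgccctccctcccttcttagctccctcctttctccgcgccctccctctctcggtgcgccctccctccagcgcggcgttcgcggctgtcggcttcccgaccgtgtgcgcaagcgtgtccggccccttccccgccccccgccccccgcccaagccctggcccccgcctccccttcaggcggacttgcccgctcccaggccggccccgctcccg
Fut1, chr7:45617356-45617655, plus strand: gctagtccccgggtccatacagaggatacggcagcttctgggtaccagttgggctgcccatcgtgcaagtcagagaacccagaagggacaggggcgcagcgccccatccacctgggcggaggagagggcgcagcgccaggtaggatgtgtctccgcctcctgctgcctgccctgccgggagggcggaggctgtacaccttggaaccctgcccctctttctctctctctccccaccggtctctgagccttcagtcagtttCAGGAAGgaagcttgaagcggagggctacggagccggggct

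Positions count from the first base of a window, and the start site follows the first 250 bases. The first B3galt5 start held 1 match to TTCNNNGAA, at positions 241 to 249, just before the start site. The second held 2 matches to CAGGAAG, at 183 to 189 and at 285 to 291, and Fut1 held 1 at 260 to 266. The third B3galt5 window and those of B3gnt3 and St3gal4 held none of the 4 motifs, which says only that these letters are not in these windows. None of the windows printed, those of B3galt5 included, held TTCNNNNGAA. RefSeq windows were matched to 55 of the 76 members, 75 windows in all. TTCNNNGAA was in 6.67% of them and in 8.30% of the 32851 windows of all genes. TTCNNNNGAA was in 2.67% and 6.95%, CAGGAAG in 10.7% and 13.3%, and CCGGAAG in 4.0% and 8.86%. A match is a description of letters, not a measured binding site, and the counts per gene do not say which start was used.

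Among the enzymes that start the chain, 7 of 15 tested Galnt members were higher in EoE33, 6 were lower and 2 did not pass, with 4 further members not tested. Galnt3, whose enzyme is known for glycosylating the hormone FGF23, was at 77.4, 147, 104 and 82.6 CPM in EoE33, against 10.3, 10.7, 11.8 and 6.68 CPM in wild type. It lay 10.4-fold higher (log2 fold change 3.38, standard error 0.26). Galnt7, which prefers peptides that already carry a GalNAc, was at 126, 159.8, 131 and 128 CPM in EoE33, against 17.2, 17.3, 19.3 and 15.2 CPM in wild type. Every EoE33 library lay far above every wild type library in both genes, and EoE33 replicate 2 was the highest of its group. Galnt7 had a log2 fold change of 2.98 (standard error 0.11), and Galnt12, with 24.9, 18.4, 22.6 and 20.02 CPM in EoE33 and 5.22, 4.35, 5.33 and 5.40 CPM in wild type, one of 2.08 (standard error 0.12). Galnt1, a broadly expressed member and the one with the highest level in wild type, was at 95.8, 112, 109.8 and 100.3 CPM in EoE33 and 66.4, 73.7, 72.7 and 77.3 CPM in wild type. The groups did not overlap, at a smaller size of 1.44-fold. Galnt4, Galnt6 and Galnt18 were also higher, with log2 fold changes of 1.49, 1.58 and 0.69.

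Galnt17 led the Galnt members that were lower. It was at 12, 9.77, 10.05 and 11.1 CPM in EoE33, against 38.1, 39.8, 38.1 and 36.8 CPM in wild type. Both groups were tight and lay apart by 3.55-fold, a log2 fold change of -1.83 with a standard error of 0.08. Galnt15 (-1.66), Galnt5 (-1.53), Galnt10 (-0.74), Galnt16 (-0.61) and Galnt11 (-0.27) were lower as well, on the log2 scale. The call of Galnt11 was lost on leaving out EoE33 replicate 1 or 3 or wild type replicate 1 or 4 (edgeR adjusted p = 0.0537 to 0.0572), and without the low-count filter (0.0575). Without both wild type replicates 1 and 3, the calls of Galnt16 (-0.59, edgeR adjusted p = 0.058) and Galnt11 (-0.31, 0.0675) were lost. Skeletal muscle markers, which come from the muscle coat of the mouse esophagus, were lower in the same libraries: all 6 fell, and their sum was 5909 to 8180 CPM in EoE33 and 22240 to 24410 CPM in wild type. Fibroblast markers summed to 794 to 1063 CPM in EoE33 and 1397 to 1758 CPM in wild type, with 3 of 4 lower. The part of these shifts in the lower Galnt levels was not tested, and in whole tissue fewer cells of a type and less RNA per cell cannot be told apart. Galnt2 had a log2 fold change of -0.10 (95% interval -0.50 to 0.30) and Galnt9 one of -0.52 (-1.41 to 0.37). For Galnt2, 90.0% of the exon sequence also belongs to the readthrough model Gm20388, and how reads in such overlaps were counted is not given in the sources used here, so its level of 4.14 CPM in EoE33 and 4.43 CPM in wild type is uncertain.

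Both core 1 genes were higher in EoE33. C1galt1, the core 1 galactosyltransferase, was at 112, 132, 114 and 102 CPM in EoE33, against 41.4, 44.1, 47.3 and 45.4 CPM in wild type. The groups lay apart by 2.58-fold (standard error of the log2 fold change 0.09). C1galt1c1, which encodes Cosmc, the chaperone that C1galt1 needs in order to fold, was at 16.8, 19.1, 15.3 and 18 CPM in EoE33, against 14.4, 15.1, 14.6 and 14.2 CPM in wild type. Its groups did not overlap but lay only 1.19-fold apart, and its call was lost on leaving out EoE33 replicate 2 or 4 or wild type replicate 1, 3 or 4 (edgeR adjusted p = 0.0611 to 0.0764), and was lost without both wild type replicates 1 and 3 (adjusted p = 0.157).

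All 4 tested Gcnt members, the branching enzymes, were higher in EoE33, each by more than 2-fold. Gcnt3, which makes the core 2 and core 4 branches of mucins, was at 2.24, 3.69, 1.81 and 2.95 CPM in EoE33, against 0.255, 0.439, 0.0846 and 0.171 CPM in wild type. Gcnt1, the common core 2 enzyme, was at 8.5, 21.4, 12.9 and 8.89 CPM in EoE33, against 2.5, 1.67, 3.94 and 5.95 CPM in wild type. Gcnt2, which makes the I branch of polylactosamine chains, was at 65.3, 114, 77.4 and 63.0 CPM in EoE33, against 36.5, 33.8, 33.4 and 46.6 CPM in wild type. In each of the 3 genes EoE33 replicate 2 was the highest library, and no wild type library reached the lowest EoE33 library. The log2 fold changes were 3.46 (standard error 0.42) for Gcnt3, 1.87 (0.44) for Gcnt1, 1.09 (0.20) for Gcnt2 and 1.38 for Gcnt4. Without wild type replicates 1 and 3, Gcnt1 and Gcnt4 no longer passed (edgeR adjusted p = 0.0587 and 0.0772), with log2 fold changes of 1.75 and 1.16.

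Of the B3gnt members, which add N-acetylglucosamine to galactose, 4 of 7 tested were higher in EoE33 and none was lower past the threshold. B3gnt3 (ENSMUSG00000031803) extends core 1 chains and is known for making the sulfated L-selectin ligands of lymph node vessels. It was at 82.5, 142, 110.4 and 96.3 CPM in EoE33, against 4.79, 4.30, 4.74 and 6.30 CPM in wild type. B3gnt7, which works on keratan sulfate chains, was at 6.4, 6.96, 5.13 and 3.94 CPM in EoE33, against 0.297, 0.264, 0.508 and 0.300 CPM in wild type. Both genes lay far apart between the groups, by 21.4-fold and 16.1-fold, with log2 fold changes of 4.42 (standard error 0.20) and 4.01 (0.28). B3gnt2, the main polylactosamine enzyme, and its partner B3gnt8 were higher by 0.47 and 0.45 on the log2 scale. B3gnt8 overlapped between the groups and lost its call on leaving out EoE33 replicate 2, 3 or 4 or wild type replicate 1, 2 or 3 (edgeR adjusted p = 0.0543 to 0.12). Of B3gnt2, 58.6% of the exon sequence is shared with the readthrough model Gm28048. B3gnt9 had the highest wild type level of the subfamily per kb of exon sequence, though not in CPM, where B3gntl1 averaged 6.97 and B3gnt9 6.61. It was at 6.92, 7.43, 7.59 and 8.09 CPM in EoE33 and 5.90, 6.33, 7.45 and 6.77 CPM in wild type. B3gnt9 had a log2 fold change of 0.18 (95% interval -0.07 to 0.44). B3gnt5, the lacto-series glycolipid enzyme, had one of 0.16 (-0.87 to 1.19), a wide interval, and B3gntl1 one of 0.15 (-0.17 to 0.47).

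The other 4 B3galt genes had small or opposite differences. B3galt1, which also makes type 1 chains, was at 0.716, 0.234, 1.12 and 0.949 CPM in EoE33, against 3.01, 2.02, 2.29 and 2.18 CPM in wild type. It was lower in every EoE33 library, by 3.07-fold (log2 fold change -1.62, standard error 0.36). B3galt2 was at 9.12, 4.51, 3.06 and 3.54 CPM in EoE33 and 29.9, 12.4, 7.19 and 32.2 CPM in wild type. It passed the threshold at a log2 fold change of -2.01 (standard error 0.57), but EoE33 replicate 1 lay above wild type replicate 3, and without the low-count filter it did not pass (edgeR adjusted p = 0.0532). The 4 smooth muscle markers summed to 1620 to 1859 CPM in EoE33 and 2859 to 5404 CPM in wild type. Des and Myh11 were lower, and Actg2 and Cnn1 were not past the threshold. Des made up the largest part of these sums, at 965.5 ± 70.8 CPM in EoE33 and 2696 ± 272 CPM in wild type (SD). Myh11, Actg2 and Cnn1 each overlapped between the groups. In wild type Myh11 was at 1397, 886, 374 and 1739 CPM, the same order of libraries as for B3galt2. In EoE33 Myh11 was at 492.5, 487, 495.5 and 402 CPM, highest in replicate 3, where B3galt2 was lowest. The part of smooth muscle in the B3galt2 level was not tested. B3galt6 was at 9.84, 7.90, 10.3 and 10.04 CPM in EoE33 and 10.1, 10.8, 9.99 and 8.78 CPM in wild type. Its groups overlapped, with a log2 fold change of -0.06 (95% interval -0.32 to 0.20), and B3galt4 was higher by 0.65.

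Of the B4galt members, which make type 2 chains and related bonds, 2 of 7 were higher, 1 was lower and 4 did not pass. B4galt1, the general type 2 chain enzyme and the galactosyltransferase of lactose synthase, was at 106, 165, 131 and 118 CPM in EoE33, against 60.2, 57.6, 64.9 and 60.4 CPM in wild type. Every EoE33 library was higher, by 2.14-fold on average (log2 fold change 1.10, standard error 0.13). B4galt3 was higher by 0.80 and B4galt4 lower, at -0.79, on the log2 scale. B4galt5 and B4galt6, the lactosylceramide synthases, had log2 fold changes of -0.28 (95% interval -0.59 to 0.03) and -0.41 (-0.79 to -0.02), and B4galt7 one of 0.16 (-0.05 to 0.36). B4galt2 had one of -0.37 (-0.75 to 0.00), and 28.4% of its transcript sequence, in windows of 150 bases, also occurs in Ccdc24. B4galt5 passed as lower without EoE33 replicate 2 (edgeR adjusted p = 0.0266) and B4galt6 without EoE33 replicate 1 (0.0251).

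**Figure D2:**
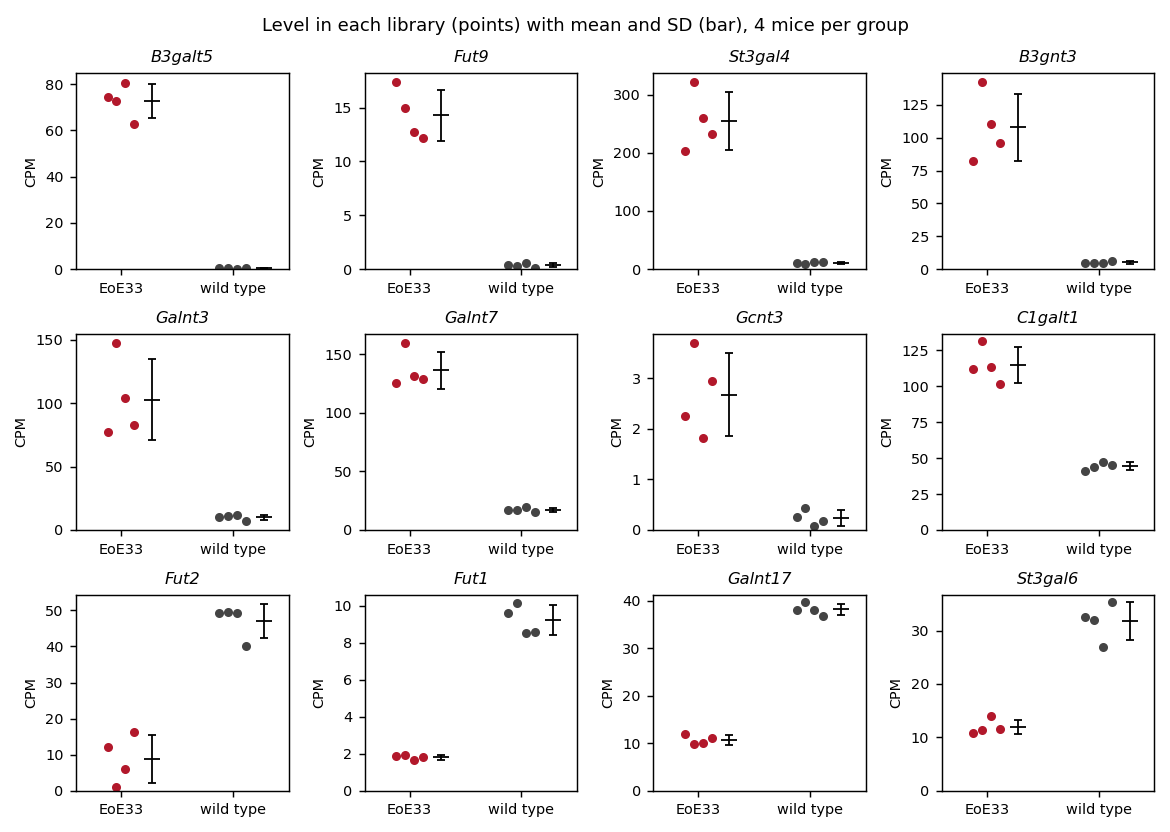
Level in CPM (y axis, from 0) of 12 members in each library (points) with the mean and SD (bar) of 4 EoE33 mice (red, left) and 4 wild type mice (grey, right). In the first 8 panels every EoE33 library lies above every wild type library, and in Fut2, Fut1, Galnt17 and St3gal6 every EoE33 library lies below.

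Fucosyltransferases were split, with 3 of 7 tested members higher, 3 lower and 1 not passing. Fut9, an alpha-1,3-fucosyltransferase that makes Lewis x on type 2 chains, was at 17.3, 14.9, 12.7 and 12.1 CPM in EoE33, against 0.340, 0.307, 0.592 and 0.129 CPM in wild type. It had the second largest fold change of the family, 41.0-fold (log2 fold change 5.36, standard error 0.31), and 5.99 on the log2 scale without wild type replicates 1 and 3. Fut4, another Lewis x enzyme, was at 1.29, 2.46, 1.81 and 1.5 CPM in EoE33 and 0.297, 0.747, 1.10 and 0.685 CPM in wild type. Its levels were low and its groups close but not overlapping, with a log2 fold change of 1.31 (standard error 0.37). Fut8, which puts fucose on the core of N-glycans, was higher by 0.68 on the log2 scale.

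Fut1 and Fut2, the alpha-1,2-fucosyltransferases that make the H antigen, were both lower in EoE33. Fut2, the secretor gene, was at 12.2, 1.17, 5.91 and 16.2 CPM in EoE33, against 49.4, 49.5, 49.4 and 40.1 CPM in wild type. The EoE33 mice differed widely among themselves, yet all lay below all wild type mice. The summed suprabasal keratinocyte markers of the same EoE33 libraries were 34070, 14290, 20310 and 30780 CPM, so that replicate 2 was the lowest and replicate 3 the next lowest in both measures; the part of that shift in the Fut2 level was not tested. The log2 fold change of Fut2 was -2.40 (standard error 0.58, 5.28-fold lower). Without wild type replicates 1 and 3 it was -2.34 and did not pass (edgeR adjusted p = 0.0551). Fut1 was at 1.86, 1.93, 1.64 and 1.80 CPM in EoE33, against 9.59, 10.2, 8.51 and 8.57 CPM in wild type. Unlike Fut2 it was tight within each group, with a log2 fold change of -2.35 (standard error 0.13, 5.09-fold lower). The 2 genes lie 27.5 kb apart on chromosome 7. Fut10 was lower too, at -0.95 on the log2 scale, and Fut11 had a log2 fold change of 0.10 (95% interval -0.08 to 0.28).

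Sialyltransferases of the 4 subfamilies together had 6 of 18 tested members higher, 6 lower and 6 not passing. St3gal4 (ENSMUSG00000032038), which caps galactose of type 2 chains with alpha-2,3-linked sialic acid, was at 204, 321, 259.9 and 233 CPM in EoE33, against 10.9, 8.08, 12 and 12.2 CPM in wild type. The groups lay 23.5-fold apart (log2 fold change 4.56, standard error 0.19). Of its exon sequence 14.1% lies opposite the gene model 4930581F22Rik, at 10.4 CPM in EoE33 and 2.72 CPM in wild type, and the use of strand in counting is not given in the sources used here. The other St3gal members that passed differed in direction. St3gal6, which acts on type 2 chains as well, was at 10.9, 11.3, 14.0 and 11.6 CPM in EoE33, against 32.6, 32.0, 26.9 and 35.4 CPM in wild type. St3gal3, which acts on type 1 chains, was at 9.12, 10.8, 10.7 and 11.0 CPM in EoE33, against 26.4, 24.5, 21.9 and 25.4 CPM in wild type. Both were lower in every EoE33 library, with log2 fold changes of -1.41 (standard error 0.11) and -1.24 (0.09). For St3gal6, 26.0% of the exon sequence lies opposite Dcbld2, which was at 26.4 CPM in EoE33 and 26.3 CPM in wild type. St3gal5, the ganglioside GM3 synthase, was lower at -0.999. St3gal1, which caps core 1, was higher at 0.75 with groups that overlapped, and did not pass without wild type replicates 1 and 3 (edgeR adjusted p = 0.094). St3gal2, with the highest level of the subfamily in wild type, was at 42.5, 42.6, 43.4 and 45.1 CPM in EoE33 and 48.8, 46.2, 46.0 and 57.7 CPM in wild type. Its groups did not overlap, but the log2 fold change of -0.19 (95% interval -0.38 to -0.01) did not pass after adjustment, other than without wild type replicate 3 (-0.23, edgeR adjusted p = 0.0435).

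St6galnac2, which adds sialic acid to the GalNAc of the O-glycan core, was at 74.3, 111, 85.9 and 89.2 CPM in EoE33, against 41.0, 40.1, 47.2 and 31.6 CPM in wild type. All EoE33 libraries were higher, by 2.25-fold (log2 fold change 1.17, standard error 0.15). A second identifier with the same symbol, ENSMUSG00000110170, overlaps the first on chromosome 11, shares 22.8% of its exon sequence with it, and was higher by 0.70. St6galnac6, which acts on gangliosides, was at 10.7, 8.84, 10.9 and 11.2 CPM in EoE33, against 27.3, 24.9, 22.3 and 28.2 CPM in wild type. It was 2.46-fold lower (log2 fold change -1.30, standard error 0.11), and its neighbour St6galnac4 was lower at -0.84. St6gal1, the enzyme of alpha-2,6-sialic acid on N-glycans, was at 10.5, 11.8, 12.9 and 10.7 CPM in EoE33 and 13.7, 10.8, 14.3 and 18.8 CPM in wild type. These groups overlapped, and its log2 fold change was -0.33 (95% interval -0.70 to 0.04), or -0.43 and past the threshold without wild type replicate 2 (edgeR adjusted p = 0.029). St6galnac3, St6galnac5 and St6gal2 were at or below 1.34 CPM on average in either group, with log2 fold changes of 0.02 (95% interval -0.50 to 0.53), -0.54 (-1.88 to 0.81) and -0.68 (-2.17 to 0.81).

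Other than St8sia4, which averaged 9.75 CPM in EoE33 and 6.57 CPM in wild type, the St8sia members were low in both groups. St8sia1, the ganglioside GD3 synthase, was at 2.00, 1.17, 1.81 and 1.70 CPM in EoE33, against 0.170, 0.264, 0.508 and 0.728 CPM in wild type. St8sia2, a polysialyltransferase known from the nervous system, was at 0.430, 0.585, 0.518 and 0.799 CPM in EoE33, against 2.46, 1.71, 1.69 and 2.44 CPM in wild type. They lay apart in opposite directions, with log2 fold changes of 1.99 (standard error 0.40) and -1.83 (0.26). Markers of neurons and Schwann cells summed to 8.31 to 32.7 CPM in EoE33 and 27.0 to 83.0 CPM in wild type, with 3 of 4 lower; their part in the St8sia2 level was not tested. St8sia4, the other polysialyltransferase, was higher by 0.57, a call lost without wild type replicates 1 and 3 (0.39, edgeR adjusted p = 0.113). St8sia6 had a log2 fold change of 0.44 (95% interval -0.53 to 1.41) and passed as higher, at 1.02, without wild type replicate 3 (edgeR adjusted p = 0.0191).

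The 11 members that were not tested had at most 46 counts summed over a group. Fut7, the sialyl Lewis x enzyme of leukocytes, had 46 counts in EoE33 and 23 in wild type, and B3gnt6, the core 3 enzyme, had 18 and 15. St6galnac1, which makes the sialyl-Tn antigen, had 10 counts in EoE33 and 0 in wild type, where a count of 0 allows up to 3 over the group. Gcnt7, St8sia3, St8sia5, B3gnt4, Galnt13, Galnt14 and Galntl6 had 1 to 29 counts per group, and Galntl5 had 0 in both.

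Levels between genes were compared as CPM per kb of exon sequence. St3gal4 led the family in EoE33 at 87.0 ± 17.2 CPM per kb and was 22nd in wild type at 3.70 ± 0.65 CPM per kb (SD, n = 4 each). B3gnt3 came next in EoE33 at 35.3 ± 8.38 CPM per kb and was 42nd in wild type at 1.65 ± 0.28 CPM per kb. Then came B4galt1 (30.7 ± 6.00), Galnt7 (25.9 ± 3.03) and Galnt3 (23.5 ± 7.28). Within each EoE33 library B3gnt3 lay above B4galt1 and B4galt1 above Galnt7, while the order of Galnt7 and Galnt3 turned in replicate 2, at 30.4 and 33.7 CPM per kb. In wild type B4galt1 was first at 14.4 ± 0.71 CPM per kb and Galnt1 followed at 13.1 ± 0.82 CPM per kb. B3galt5, despite its fold change, was 11th in EoE33 at 11.8 ± 1.20 CPM per kb and 68th in wild type. Fut2 was 38th in EoE33 at 1.63 ± 1.22 CPM per kb and 7th in wild type at 8.67 ± 0.86 CPM per kb.

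In 3 subfamilies an enzyme with a minor share in wild type made up most of the summed level in EoE33. B3galt5 made up 61.9% ± 3.09 of the summed B3galt level in EoE33 and 0.57% ± 0.23 in wild type, where B3galt6 led with 39.5% ± 7.76 (SD, n = 4 each). B3gnt3 made up 78.3% ± 2.53 of the B3gnt sum in EoE33 and 18.9% ± 1.87 in wild type, where B3gnt9 led with 30.4% ± 2.40. St3gal4 made up 76.1% ± 1.68 of the St3gal sum in EoE33 and 9.20% ± 1.21 in wild type, where St3gal2 led with 24.6% ± 0.90. In each of the 3, the share did not overlap between groups in any library. Among the Galnt members, Galnt7 and Galnt3 made up 22.5% ± 0.96 and 19.99% ± 3.5 in EoE33, against 5.63% ± 0.68 and 3.88% ± 0.97 in wild type, while Galnt1 held 16.5% ± 0.995 in EoE33 and 22.4% ± 0.89 in wild type. Galnt2 and B3gnt2 share exon sequence with readthrough models, and how such reads were counted is not given. The model over Galnt2, Gm20388, had 0 counts in either group. Shares and ranks within the Galnt and B3gnt subfamilies carry this uncertainty. Among the fucosyltransferases Fut8 led in EoE33 with 38.9% ± 5.01, against 16.9% ± 2.06 in wild type, and Fut2 held 10.5% ± 7.45 in EoE33 and led in wild type with 40.1% ± 3.10.

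**Figure D3:**
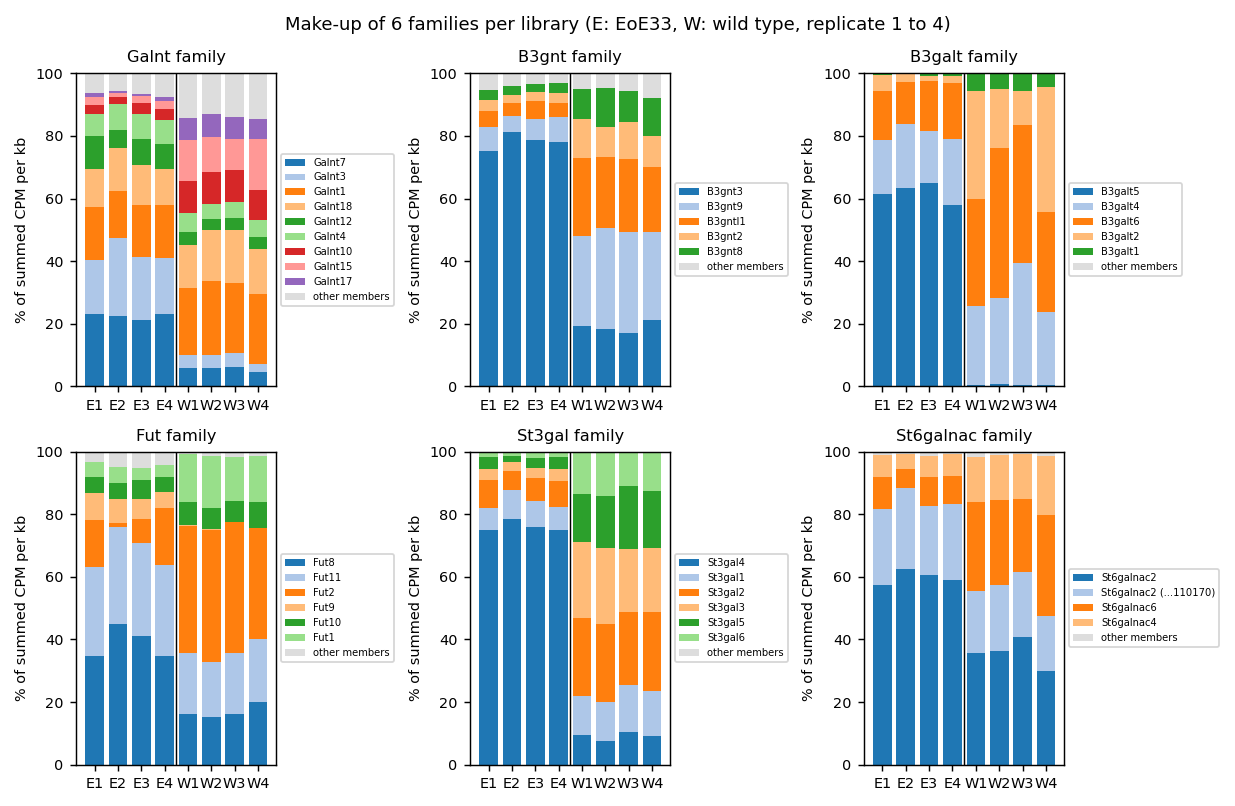
Share (%) of each member in the summed CPM per kb of its subfamily, 1 bar per library (E, EoE33 replicates 1 to 4; W, wild type replicates 1 to 4), for 6 subfamilies; each panel's legend gives its own colours, from the bottom up. B3galt5, B3gnt3 and St3gal4 take 61.9%, 78.3% and 76.1% of their sums in EoE33 on average, against 0.57%, 18.9% and 9.20% in wild type.

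The summed level per kb was higher in EoE33 for most subfamilies. It was 115.6 ± 14.7 CPM per kb in EoE33 and 58.6 ± 3.10 in wild type for Galnt, 44.9 ± 9.22 and 8.67 ± 0.88 for B3gnt, 19.0 ± 1.11 and 8.05 ± 1.14 for B3galt, 49.5 ± 6.75 and 33.1 ± 1.58 for B4galt, and 114.0 ± 19.9 and 40.1 ± 3.75 for St3gal (SD, n = 4 each). The Fut sum was lower, at 15.0 ± 1.04 CPM per kb in EoE33 and 21.6 ± 0.63 in wild type, a ratio of 0.697. The St6gal sum was 2.44 ± 0.28 CPM per kb in EoE33 and 3.11 ± 0.74 in wild type, a ratio of 0.785 and within the wild type spread. St8sia gave 1.16 ± 0.07 CPM per kb in EoE33 and 1.10 ± 0.25 in wild type, also within the spread. These sums follow from the member levels and were not tested.

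EoE33 replicate 2 was the most extreme of its group in many members: it was the highest EoE33 library in 22 of the 30 members that were higher and the lowest in 11 of the 18 that were lower. The same count over all genes was not made, so nothing particular to the members is read from it. On the first principal component of all tested genes, replicate 2 also lay farthest from wild type, at -111. The other EoE33 libraries were at -87.9 to -65.6 there. It was also the highest for the summed basal keratinocyte markers and the lowest for the suprabasal ones, and its depth was the lowest at 17726292 counts. The part of cell make-up and of depth in these orders was not tested. Over the 62 members with a mean of at least 1 CPM, the median coefficient of variation was 16.6% in EoE33 and 15.3% in wild type. Leukocyte markers summed to 232 to 313 CPM in EoE33 and 71.7 to 150.5 CPM in wild type, with all 4 higher. Mucous cell markers summed to 97.3 to 218 CPM in EoE33 and 5.27 to 42.3 CPM in wild type, with Fcgbp, Agr2 and Spdef higher. The fourth tested marker, Clca1, was at 0.48 ± 0.32 CPM in EoE33 and 0.99 ± 0.85 CPM in wild type (SD, n = 4 each; log2 fold change -1.02, not past the threshold). Fcgbp made up most of the EoE33 sums, at 82.9 to 185 CPM, and Muc5b in replicate 3, at 30.7 CPM, most of the highest wild type sum. Of the defining goblet cell genes, Muc5ac had 3 counts over EoE33 and 2 over wild type, and Tff3 had 0 and 1.

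Other genes of the pathway were described from lists. Of 29 genes for nucleotide sugar synthesis and Golgi transport, 20 were higher in EoE33, 3 were lower and 6 did not pass, with a median log2 fold change of 0.42. Gfpt1, the first enzyme of the hexosamine pathway to UDP-GlcNAc, was at 243, 392, 295 and 236 CPM in EoE33, against 43.6, 41.1, 46.0 and 43.7 CPM in wild type. Gmds, which starts the synthesis of GDP-fucose from GDP-mannose, was at 14.4, 24.8, 18.9 and 15.2 CPM in EoE33, against 3.27, 2.20, 2.20 and 3.21 CPM in wild type. Both were higher in every EoE33 library, with log2 fold changes of 2.74 (standard error 0.16) and 2.75 (0.22). Of 7 tested genes of N-glycan branching, 6 were higher and none was lower past the threshold. Mgat4a, which adds a GlcNAc branch to the N-glycan core, was at 164, 265, 178 and 135 CPM in EoE33, against 25.4, 20.4, 26.0 and 21.2 CPM in wild type. Its log2 fold change was 3.0 (standard error 0.21). Mgat5b was higher at 2.06 with groups that overlapped.

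Of 12 tested genes of other terminal or core glycosyltransferases, 5 were higher, 3 lower and 4 did not pass. B4galnt1, the ganglioside GM2 synthase, was at 105, 115, 112 and 105 CPM in EoE33, against 28.6, 28.5, 37.1 and 27.3 CPM in wild type. Abo, the histo-blood group transferase that acts on the H antigen, was at 6.02, 0.351, 2.11 and 3.15 CPM in EoE33, against 8.95, 12.2, 9.35 and 8.44 CPM in wild type. The groups lay apart in opposite directions in these 2 genes, with log2 fold changes of 1.85 (standard error 0.10) and -1.73 (0.57). As for Fut2, the lowest EoE33 library for Abo was replicate 2. A4gnt, at a low level of 0.034 CPM in EoE33 and 0.78 CPM in wild type on average, was lower at -4.2 on the log2 scale. Of 8 tested genes of glycan sulfation and O-acetylation, 2 were higher, 2 lower and 4 did not pass. Chst2, a GlcNAc 6-O-sulfotransferase, was higher by 0.65, and Chst1, a galactose 6-O-sulfotransferase, was lower at -1.24 with groups that overlapped. Chst5, the other higher gene, had a larger log2 fold change of 4.21 at a low level. It averaged 1.10 CPM in EoE33 and 0.053 CPM in wild type.

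Of 6 tested mucins, the carriers of such glycans, 4 were higher and 1 lower. Muc4 was at 109.9, 154, 67.9 and 34.5 CPM in EoE33, against 2.59, 3.25, 7.53 and 2.10 CPM in wild type, and Muc20 averaged 10.1 ± 4.38 CPM in EoE33 and 0.318 ± 0.499 CPM in wild type (SD, n = 4 each). All EoE33 libraries were higher in both, with log2 fold changes of 4.56 (standard error 0.61) and 4.95 (0.84). The spans of these 2 genes overlap on opposite strands of chromosome 16. The use of strand in counting is not given, so the 2 rises may not be separate. The airway and gland mucin Muc5b was not tested, with 30.7 CPM in wild type replicate 3 and at most 0.25 CPM in any other library. Of 9 tested glycosidases 3 were higher, among them Glb1, the lysosomal beta-galactosidase (0.75), and 3 lower, among them the sialidase gene Neu2 (-1.28), on the log2 scale. Of 7 tested galectins, lectins that bind terminal galactose, 2 were higher and 3 lower: Lgals3 averaged 469 ± 87.9 CPM in EoE33 and 158 ± 26.0 CPM in wild type, and Lgals4 3.65 ± 0.33 CPM in EoE33 and 9.28 ± 1.73 CPM in wild type (SD, n = 4 each). These lists were also drawn up with earlier results of the same libraries known, so their counts stand beside the 63.4% of all genes called as descriptions only.

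**Figure D4:**
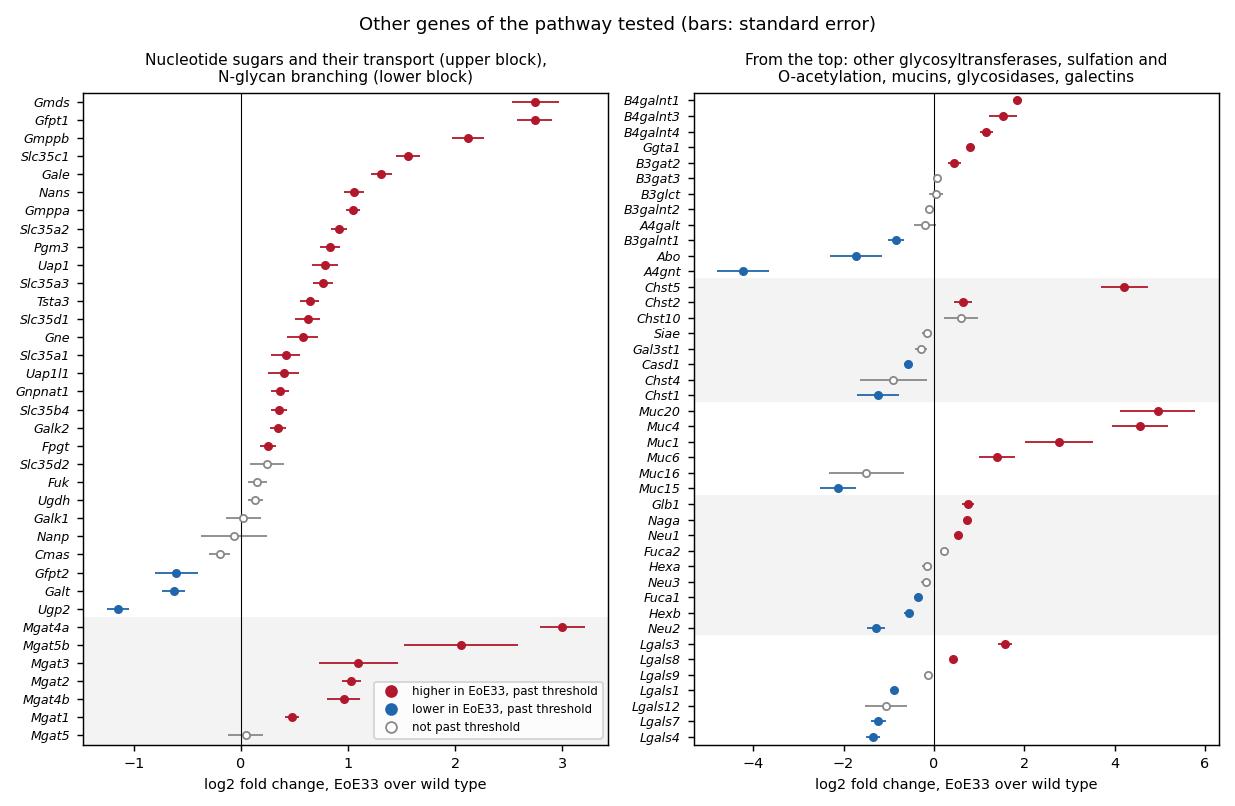
Log2 fold change of EoE33 over wild type (x axis; the panels have different ranges) for the tested genes of 7 lists of the wider pathway (rows, shaded by list), with bars of 1 standard error (4 mice per group). Red points were higher and blue points lower past the threshold, and open points did not pass; among nucleotide sugar genes 20 of 29 were higher, and all 6 called N-glycan branching genes were higher.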

How the data were processed

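PolyA-selected RNA of 4 EoE33 and 4 wild type esophagi was read from both ends on an Illumina HiSeq, per the labels' protocols. The authors deposited 1 table of raw counts, with 49315 gene identifiers and 8 columns, all used. Columns were assigned by the spreadsheet letter in each sample's description. Trimmomatic 0.36, STAR 2.5.2b, featureCounts, Subread 1.5.2 and GRCm38 are named, without roles, in the submitters' processing notes. For the annotation release, strand use and multiply matching reads, nothing is given in the sources used here; without strand, reads of overlapping opposite genes cannot be told apart.

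GENCODE M21 (GRCm38) gave symbols for 49056 identifiers. Of 78 genes matching the symbol pattern, 2 antisense genes were left out. Members and lists were chosen with earlier results of these data known, and some lists come from an earlier analysis of them. Genes were filtered with filterByExpr, scaled by TMM and fitted over all 16760 genes with edgeR 4.0.16 (R 4.3.3; robust glmQLFit, then glmQLFTest) on genotype alone and Benjamini-Hochberg adjustment. CPM use TMM-scaled library sizes, and exon lengths are unions of annotated exons. Standard errors were derived from the quasi-likelihood statistic. The procedure was tested on simulated counts.

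Depth was 17726292 to 24070822 counts per library, and 3 counts correspond to 0.127 to 0.176 CPM; such floors cover counting error only. Every pair of libraries in a group differed beyond counting noise, with a chi-square of 10.38 to 70.1 per degree of freedom. The labels give no batch. Values in every library were given for B3galt5, for up to 4 members per subfamily that were called at a fold of at least 2 in either direction, no overlap and a mean of at least 1 CPM, and for the member with the highest wild type CPM per kb in each subfamily. From each other list up to 2 called genes with a mean of at least 1 CPM were named. B3galt2, Muc5b and other genes named beside these were chosen after their values were seen. Alternatives were DESeq2 1.42.0, its size factors, library size only, no filter, a replicate block, leaving out each library, and leaving out wild type replicates 1 and 3.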

Additional observations from a re-analysis of the deposited data

Results flagged for a closer look

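In the 30 members whose libraries are given in full, 60 groups of 4 were examined for a library that stood apart from the other 3, by the gap to the nearest library as a share of the group's range, against Dixon's critical value. Chance gives about 1 in 20 such groups, and 4 were found. Galnt7 in EoE33 replicate 2 was at 159.8 CPM, above the others at 126 to 131 CPM. Fut2 in wild type replicate 4 was at 40.1 CPM, below the others at 49.4 to 49.5 CPM. Galnt12 in wild type replicate 2 was at 4.35 CPM, below the others at 5.22 to 5.40 CPM. B3gnt7 in wild type replicate 3 was at 0.508 CPM, above the others at 0.264 to 0.300 CPM. In all 4 genes every library of one genotype still lay on one side of every library of the other.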

How the results depend on the processing

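The counts of members called moved by less than 1.5 times under all 14 alternatives. Leaving out 1 library gave 9705 to 10467 genes called, 28 to 30 members higher and 17 to 19 lower. The other settings gave 29 higher and 18 lower with library size only, 31 and 16 without the low-count filter, and 30 and 18 with DESeq2 and with its size factors. Without wild type replicates 1 and 3, 8827 genes were called, 24 members higher and 15 lower; a smaller wild type group enters that fit. Of 420 values of named members over the alternatives, 408 kept their direction and side of the threshold, 9 lost and 2 gained the call, and B3galt6 (single-library range -0.12 to 0.02) turned to 0.02 without EoE33 replicate 2, within its error. Leaving out 1 library added calls for B4galt5, B4galt6, St3gal2, St6gal1 and St8sia6, in 1 setting each.

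No pairing of the mice by replicate number is given in the sources used here. Deviations of same-numbered mice correlated at 0.104, -0.122, 0.056 and -0.136. Such small values do not exclude a shared litter or preparation. With a replicate block 10056 genes were called, 29 members higher and 18 lower; C1galt1c1 did not pass there (log2 fold change 0.24, adjusted p = 0.0522, edgeR).

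Taking the longest transcript as length moved 15 of 18 leading shares by more than 1 SD, with B3galt5 at 65.4%, B3gnt3 at 74.9% and St3gal4 at 79.1% of their sums in EoE33. At these depths the 11 untested members had at most 46 counts over a group, and the main fit did not test them. Without the low-count filter, those with any count entered the fit. The rise in higher members in that setting came from them, since no member of the main fit gained the call there.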
